A study of Mus musculus with 6 samples.

Results

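The genes described here encode the subunits of the receptors for glutamate and GABA, the main excitatory and inhibitory transmitters of the brain. They were chosen by gene symbol alone, without regard to their level, and comprised the AMPA (*Gria*), kainate (*Grik*), NMDA (*Grin*) and delta (*Grid*) subunits, the metabotropic glutamate receptors (*Grm*) other than *Grm3* and *Grm5*, and the GABA-A (*Gabr*) and GABA-B (*Gabbr*) subunits. Of 24421 genes in the deposited tables, 45 matched, 24 of glutamate receptors and 21 of GABA receptors. RNA of hippocampal astrocytes was sequenced in 3 libraries from PBS-treated mice and 3 libraries from DT-treated mice. All mice of both groups were C57BL/6 *Siglech* dtr/dtr mice, in which the diphtheria toxin (DT) receptor is expressed from the *Siglech* locus, a gene of microglia, so that DT ablates microglia. PBS or DT at 50 µg/kg was injected intraperitoneally 2 days before sampling, and the age of the mice is not given in the labels. Astrocytes were isolated by magnetic-activated cell sorting (MACS) with beads against astrocyte cell surface antigen-2 after cells carrying CD11b had been removed, and each library was a pool of 2 mice. There was no group without the receptor, so the effect of DT itself and that of the loss of microglia cannot be told apart.

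Glutamate and GABA receptors of the ionotropic kind are ion channels assembled from several subunits, whereas the metabotropic glutamate receptors and the GABA-B receptor act through G proteins. An NMDA receptor needs the subunit encoded by *Grin1* and opens when glutamate binds together with glycine or D-serine, a typical GABA-A receptor combines alpha and beta subunits with a gamma or delta subunit, and a working GABA-B receptor needs both of its subunits. In the hippocampus these receptors are best known from synapses of neurons, but astrocytes also carry some of them and respond to both transmitters with calcium signals.

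Each library held between 21704891 and 32933975 reads assigned to genes. Levels are compared between genes in TPM, which corrects for transcript length, and groups are compared in CPM, the reads of a gene relative to those of its library after the authors' scaling. The 13 astrocyte markers checked, among them *Slc1a2*, *Slc1a3* and *Aqp4*, summed to between 64827 and 72035 CPM per library, and each of them was read. The 15 neuron markers summed to 657, 792 and 878 CPM in the PBS libraries and to 535, 862 and 1048 CPM in the DT libraries, and each of them was read too. *Siglech* was read at 0.967, 2.14 and 1.93 CPM in the PBS libraries and was not read in any DT library, and the sum of 10 microglia markers was 165 to 205 CPM in the PBS libraries and 70.2 to 82.5 CPM in the DT libraries. Choroid plexus markers varied most between libraries, from 45.7 to 855 CPM in the PBS libraries and from 533 to 1492 CPM in the DT libraries, and the part of this variation in the values below was not tested. Nothing in the labels says that libraries of one number were made together. The replicates are pools of 2 mice, and the paper states that the pools came from independent experiments. The p-values therefore measure the spread between pools, which includes that between experiments.

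The receptor transcripts of these sorted samples were dominated by a few genes. With a mean of at least 200 TPM over the 6 libraries, *Gabbr1* (464 TPM), *Grin2c* (350 TPM), *Gria2* (278 TPM), *Gabrb1* (225 TPM) and *Gabrg1* (225 TPM) together held between 70.2% and 76.3% of the TPM of all 45 genes. A further 11 genes lay between 20 and 200 TPM, 21 between 1 and 20 TPM, and 8 under 1 TPM. Summed over the 45 genes, the level was 2140 ± 90.8 TPM in the PBS libraries and 2039 ± 58.2 TPM in the DT libraries (mean and SD, n = 3 each). By family, the ionotropic glutamate receptors held 45.4% of this sum on average, the GABA-A receptors 27.5%, the GABA-B receptor 26.3% and the 6 metabotropic glutamate receptors 0.783%. In the same libraries the 13 astrocyte markers had a median of 892 TPM. The 15 neuron markers had a median of 13.4 TPM, with *Camk2a* the highest at 258 TPM. The part of each cell type in the receptor levels was not tested.

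**Figure D1:**
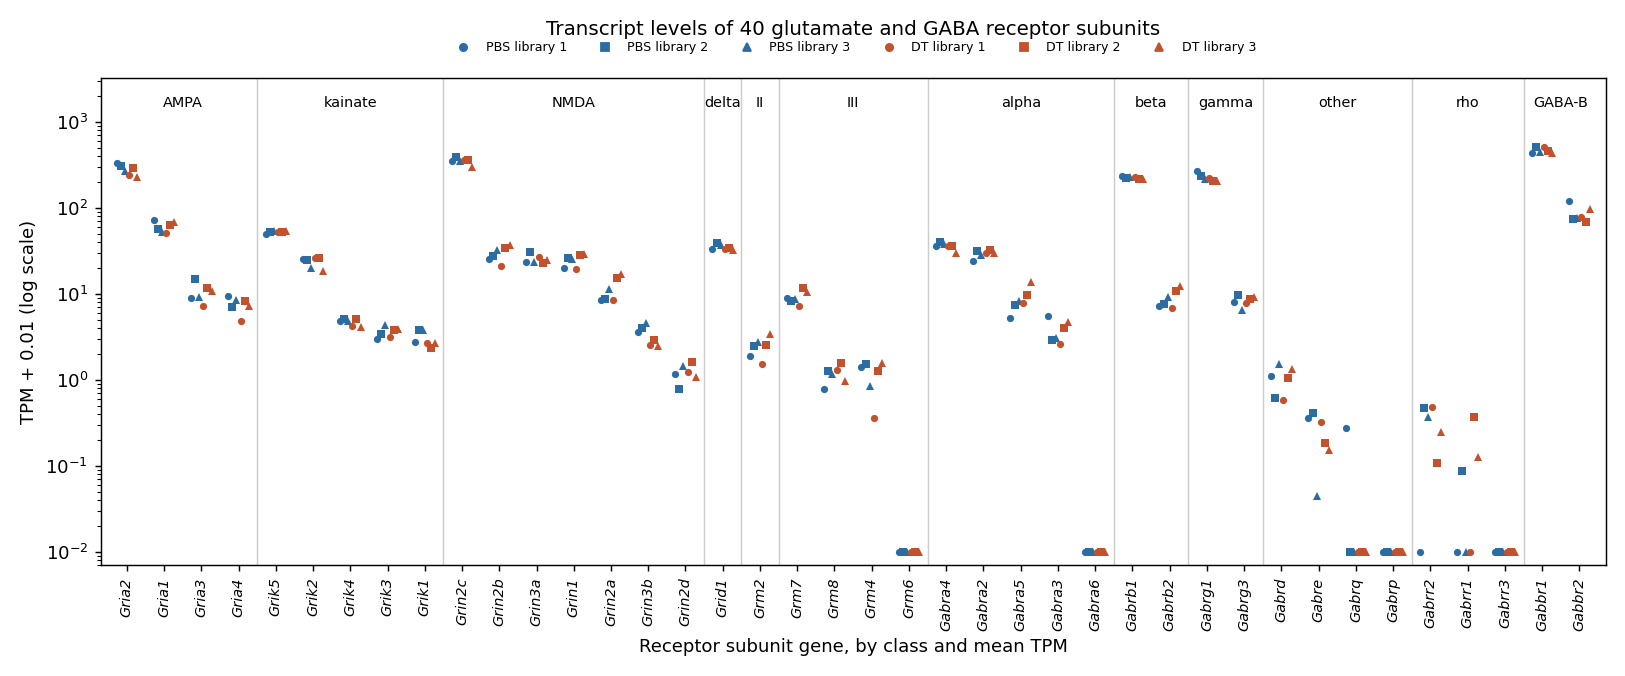
Level of 40 receptor subunit genes in each library, in TPM with 0.01 added on a log axis, grouped by receptor class and ordered by mean level within a class (II and III are metabotropic groups, "other" the delta, epsilon, pi and theta subunits of GABA-A receptors). Blue symbols are PBS libraries and orange symbols DT libraries. 5 genes lie at 200 TPM or more, and points at the bottom are genes without a read in that library.

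The start regions of these 5 genes are shown because they carry most of the receptor transcripts. The sequences are from RefSeq on GRCm38.p6 (mm10), each giving the 100 bases before an annotated transcription start in the direction of the gene, with every CG dinucleotide in capitals.
*Gabbr1*, chr17:37045866-37045965, plus strand: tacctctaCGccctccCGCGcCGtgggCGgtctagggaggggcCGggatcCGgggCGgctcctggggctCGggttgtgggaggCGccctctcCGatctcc
*Grin2c*, chr11:115267244-115267343, minus strand: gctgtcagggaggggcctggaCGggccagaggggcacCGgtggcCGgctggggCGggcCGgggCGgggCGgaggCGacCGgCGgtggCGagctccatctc
*Gria2*, chr3:80802836-80802935, minus strand: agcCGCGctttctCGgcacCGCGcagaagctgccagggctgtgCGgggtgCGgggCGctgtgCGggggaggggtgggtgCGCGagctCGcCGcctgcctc
*Gabrg1*, chr5:70842618-70842717, minus strand: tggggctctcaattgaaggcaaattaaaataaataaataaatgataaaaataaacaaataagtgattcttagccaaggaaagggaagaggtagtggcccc
*Gabrb1*, second start, chr5:71699832-71699931, plus strand: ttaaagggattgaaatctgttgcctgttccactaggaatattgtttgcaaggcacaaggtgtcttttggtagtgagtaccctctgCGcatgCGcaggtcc
Over the whole RefSeq window, from 250 bases before the start to 50 bases after it, *Gria2* had 26 CG dinucleotides, *Grin2c* 22 and *Gabbr1* 18, while *Gabrg1* had 3. The median over all 32851 windows was 7, and 76.7% of them held at least 3 and 23.1% at least 22. A CG reads the same on both strands, so 1 count covers both. *Gabrb1* has 2 annotated starts, whose windows held 25 and 9. The 100 bases before the first start lie within an exon of *Gabra4*, which is read in the opposite direction, and are not shown. RefSeq windows were matched by symbol for 31 of the 45 genes, 38 windows in all, with a median of 12 CG dinucleotides.

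Among the AMPA subunits, *Gria2* made up most of the transcripts. This subunit, in its edited form, keeps AMPA receptors from passing calcium. *Gria2* (chr3:80681450-80802835, minus strand) was at 335, 303 and 267 TPM in the PBS libraries and at 242, 292 and 231 TPM in the DT libraries. DT2 lay above PBS3, so the groups overlapped. *Gria2* held between 72.9% and 79.6% of the AMPA transcripts of a library, the lowest share being that of DT3. *Gria1* (chr11:57011387-57330244, plus strand), the subunit best known for its part in synaptic plasticity, was at 72.2, 56.0 and 53.0 TPM after PBS and at 50.9, 62.9 and 67.5 TPM after DT, with the groups overlapping. *Gria2* exceeded *Gria1* 3.41- to 5.41-fold in each of the 6 libraries. The other AMPA subunits, *Gria3* and *Gria4*, averaged 10.4 and 7.53 TPM.

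Between the groups, *Gria2* had a log2 fold change of -0.25 (95% interval -0.51 to 0.02, adjusted p = 0.513, limma). For *Gria1* the log2 fold change was -0.02 (95% interval -0.35 to 0.30, adjusted p = 0.972, limma). Neither difference passed the threshold of an adjusted p-value of 0.05 over the 15137 genes tested.

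The kainate receptor transcripts consisted mainly of *Grik5* and *Grik2*. *Grik5* encodes a high-affinity subunit that forms channels with another kainate subunit, and *Grik2* one that can form channels alone. *Grik5* (chr7:25009849-25072346, minus strand) was at 49.1, 52.3 and 53.3 TPM after PBS and at 52.4, 51.8 and 53.7 TPM after DT. Its standard error of 0.06 was the smallest of the subunits tested, with a log2 fold change of 0.02 (95% interval -0.12 to 0.16, adjusted p = 0.952, limma). *Grik2* (chr10:49094833-49788766, minus strand) was at 25.6, 24.4 and 20.1 TPM after PBS and at 26.2, 26.2 and 18.5 TPM after DT. PBS3 and DT3 were the lowest libraries of their groups, and the log2 fold change was -0.01 (95% interval -0.34 to 0.33, adjusted p = 0.991, limma). *Grik5* transcripts were 1.92 to 2.90 times as abundant as those of *Grik2*. *Grik4*, *Grik3* and *Grik1* averaged 4.68, 3.58 and 3.0 TPM.

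Most of the NMDA receptor transcripts were of *Grin2c*. *Grin2c*, an NMDA subunit best known from cerebellar granule cells and also found in astrocytes, was at 347, 390 and 347 TPM after PBS and at 358, 357 and 302 TPM after DT (chr11:115249169-115267243, minus strand). It held 73.1% to 81.8% of the NMDA receptor transcripts of a library. *Grin1*, the subunit every NMDA receptor needs, was at 19.7, 26.2 and 25.1 TPM after PBS and at 19.5, 28.0 and 29.0 TPM after DT. *Grin2c* transcripts thus exceeded those of *Grin1* 10.4-fold in DT3 to 18.4-fold in DT1. *Grin2b* (chr6:135713233-136173511, minus strand), the glutamate-binding subunit prominent in the forebrain from early development, was at 25.3, 27.5 and 32.4 TPM after PBS and at 21.0, 34.5 and 37.3 TPM after DT. The DT libraries included the lowest and the highest values of *Grin2b*. *Grin3a* averaged 25.2 TPM, *Grin2a* 11.5 TPM and *Grin2d* 1.21 TPM.

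*Grin3b* was the receptor subunit with the smallest p-value. It encodes a subunit that binds glycine and lowers the calcium flow of NMDA receptors. *Grin3b* (chr10:79970715-79977190, plus strand) was at 3.57, 4.04 and 4.58 TPM in the PBS libraries and at 2.54, 2.86 and 2.49 TPM in the DT libraries, from 63 to 148 reads per library. Every DT library lay below every PBS library. *Grin3b* had a log2 fold change of -0.63 (95% interval -1.04 to -0.21) with an unadjusted p of 0.00803 and an adjusted p of 0.277 (limma), which did not pass the threshold. *Grin2c* had a log2 fold change of -0.11 (95% interval -0.30 to 0.08, adjusted p = 0.704, limma). *Grin2b* differed by 0.08 on the log2 scale (95% interval -0.36 to 0.51, adjusted p = 0.929, limma).

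The delta receptors are related to ionotropic glutamate receptors but act mainly as synaptic organizers that bind cerebellins. *Grid1* (chr14:34820108-35583379, plus strand) was at 33.1, 38.5 and 36.5 TPM after PBS and at 33.0, 34.0 and 32.6 TPM after DT. The groups of *Grid1* did not overlap in CPM, while they did in TPM. *Grid1* had a log2 fold change of -0.13 (95% interval -0.30 to 0.04, adjusted p = 0.604, limma).

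The 6 metabotropic glutamate receptors considered were all low, and their sum was 15.5 ± 0.727 TPM in the PBS group and 17.2 ± 4.15 TPM in the DT group (SD, n = 3). *Grm7* (chr6:110645581-111567230, plus strand), a receptor of presynaptic terminals that inhibits release, held between 75.2% and 81.7% of the transcripts of its group, group III. Its levels were 8.99, 8.29 and 8.67 TPM after PBS and 7.25, 11.6 and 10.5 TPM after DT, so that the DT libraries lay on either side of the PBS libraries. *Grm8* (chr6:27275119-28135178, minus strand), of the same group, was at 0.760, 1.24 and 1.15 TPM after PBS and at 1.28, 1.55 and 0.959 TPM after DT. *Grm2* (chr9:106643095-106656082, minus strand), of group II, was at 1.86, 2.44 and 2.71 TPM after PBS and at 1.52, 2.5 and 3.39 TPM after DT. The groups overlapped in each of these receptors. *Grm7* had a log2 fold change of 0.14 (95% interval -0.24 to 0.51, adjusted p = 0.824), *Grm8* 0.24 (-0.44 to 0.92, adjusted p = 0.833) and *Grm2* 0.02 (-0.66 to 0.70, adjusted p = 0.986), all from limma. *Grm4* was read 11 to 67 times per library, and *Grm6*, known from retinal bipolar cells, was not read in any library, which allows up to 0.138 CPM at 3 reads in the shallowest library for counting error only.

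The GABA-A receptor transcripts came largely from 1 cluster of genes. The *Gabrg1*, *Gabra2*, *Gabra4* and *Gabrb1* genes lie side by side on chromosome 5 (chr5:70751047-72149037), and together held 85.8% to 92.3% of the GABA-A transcripts of a library. In the chromosome 5 cluster, *Gabra4* and *Gabrb1* are read in opposite directions from annotated first exons that overlap by 196 bases. Yet *Gabrb1* exceeded *Gabra4* by 5.65- to 7.15-fold in TPM in each library. The authors mapped the reads with strand.

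*Gabrb1* (chr5:71658113-72149037, plus strand), a beta subunit, was at 237, 224 and 230 TPM after PBS and at 230, 216 and 215 TPM after DT. It held 86.4% to 93.3% of the beta subunit transcripts. *Gabrg1* (chr5:70751047-70842617, minus strand), a gamma subunit known from Bergmann glia of the cerebellum, was at 268, 234 and 215 TPM after PBS and at 225, 205 and 203 TPM after DT. *Gabrg1* held 93.7% to 96.0% of the gamma subunit transcripts. The ranges of *Gabrb1* and *Gabrg1* overlapped with each other, and those of the groups overlapped within each gene. *Gabrb1* had a log2 fold change of -0.08 (95% interval -0.23 to 0.07, adjusted p = 0.743, limma). *Gabrg1* had a log2 fold change of -0.19 (95% interval -0.41 to 0.03, adjusted p = 0.548, limma).

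Alpha subunit transcripts were fewer than those of beta and gamma subunits, *Gabrb1* alone standing at 2.39 to 3.10 times the sum of the 6 alpha subunits. *Gabra4* (chr5:71569749-71658308, minus strand), an alpha subunit of extrasynaptic receptors, was at 36.3, 39.7 and 37.8 TPM after PBS and at 35.6, 35.5 and 30.0 TPM after DT. Every DT library lay below every PBS library, by a small margin. *Gabra2* (chr5:70957597-71095849, minus strand) was at 24.1, 31.4 and 28.3 TPM after PBS and at 29.8, 32.6 and 29.5 TPM after DT, with the groups overlapping. *Gabra4* had a log2 fold change of -0.19 (95% interval -0.39 to 0.01, adjusted p = 0.511, limma) and *Gabra2* one of 0.12 (95% interval -0.11 to 0.36, adjusted p = 0.734, limma). *Gabra5*, an alpha subunit of extrasynaptic receptors in the hippocampus that is singled out here after its values were seen, was at 5.23, 7.37 and 8.30 TPM after PBS and at 7.89, 9.54 and 13.8 TPM after DT. PBS3 lay above DT1, so the groups of *Gabra5* overlapped. Its log2 fold change of 0.55 (95% interval 0.01 to 1.08) was the highest of the subunits, with an unadjusted p of 0.0459 and an adjusted p of 0.473 (limma).

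The other subunits of GABA-A receptors were low. *Gabrg3* (chr7:56716465-57387188, minus strand) was at 8.08, 9.65 and 6.39 TPM after PBS and at 7.73, 8.79 and 9.25 TPM after DT, a log2 fold change of 0.09 (95% interval -0.34 to 0.53, adjusted p = 0.906, limma). The DT libraries lay within the range of the PBS libraries. *Gabrd* (chr4:155384980-155398112, minus strand), whose subunit takes the place of gamma in extrasynaptic receptors, was read 9 to 22 times per library, at 1.09, 0.603 and 1.52 TPM after PBS and at 0.571, 1.04 and 1.33 TPM after DT. At this depth its interval was wide (log2 fold change -0.12, 95% interval -1.15 to 0.92, adjusted p = 0.958, limma). *Gabra6*, known from cerebellar granule cells, *Gabrp* and *Gabrr3* were not read in any library. *Gabre*, *Gabrq*, *Gabrr1* and *Gabrr2* had at most 13 reads in a library and were not tested.

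Transcripts of the GABA-B receptor were also unequal between its subunits. *Gabbr1* (chr17:37045966-37075067, plus strand), whose product binds GABA, was at 429, 506 and 446 TPM after PBS and at 510, 458 and 437 TPM after DT, and was the most abundant of the 45 genes in each library. *Gabbr2* (chr4:46662305-46991873, minus strand), whose product couples to the G protein and brings the receptor to the surface, was at 119, 74.0 and 75.8 TPM after PBS and at 77.5, 68.0 and 96.5 TPM after DT. PBS1 was the highest library for *Gabbr2* and the lowest for *Gabbr1*. The ratio of *Gabbr1* to *Gabbr2* ran from 3.6 in PBS1 to 6.83 in PBS2. *Gabbr1* had a log2 fold change of 0.01 (95% interval -0.18 to 0.21, adjusted p = 0.974, limma). For *Gabbr2* it was -0.14 (95% interval -0.60 to 0.31, adjusted p = 0.852, limma).

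**Figure D2:**
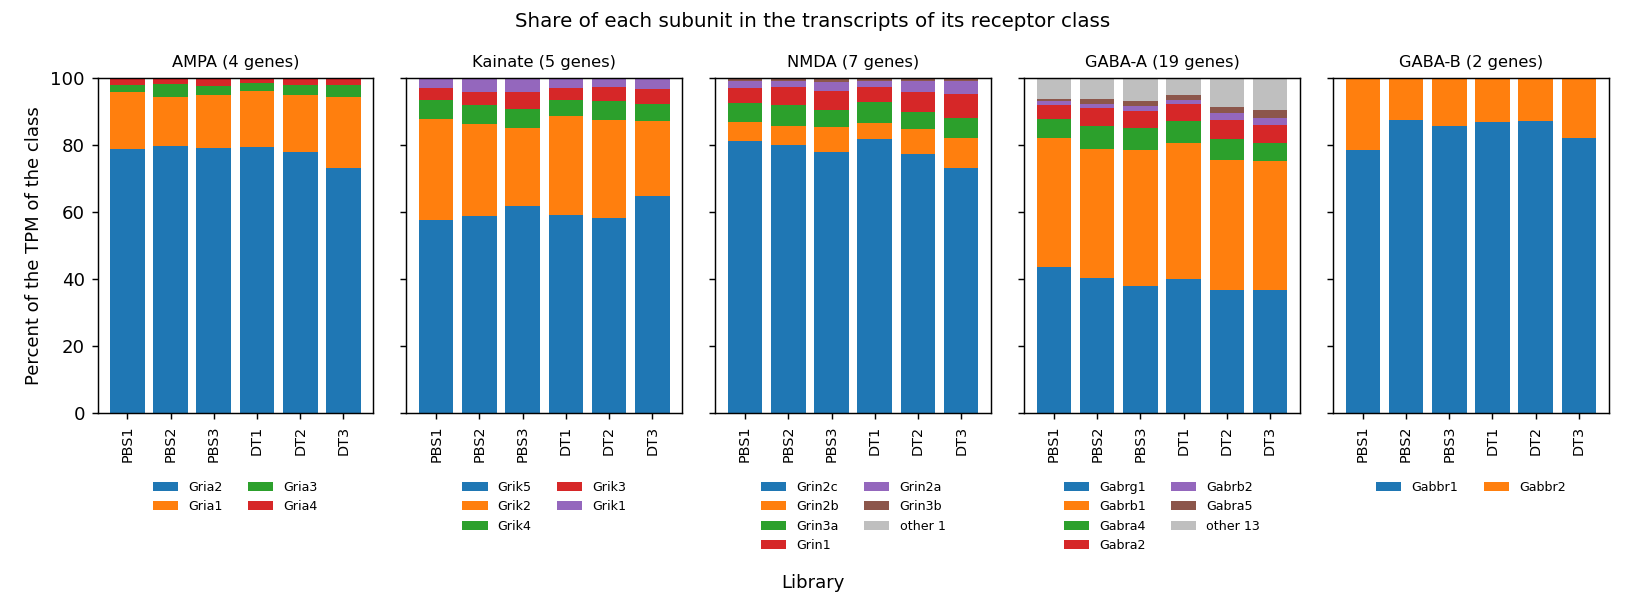
Share of each subunit in the summed TPM of its receptor class, in percent, for each of the 6 libraries. The bars show up to 6 of the subunits and the others in grey. *Gria2*, *Grin2c* and *Gabbr1* hold over 70% of their class in every library, and *Gabrb1* and *Gabrg1* together most of the GABA-A transcripts.

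Of the 45 genes, 37 passed the filter of a mean of at least 0.5 CPM and were compared between DT and PBS. None was called higher or lower at an adjusted p-value of 0.05 with limma, edgeR or DESeq2. Among all 15137 genes tested, 0.555% were called higher and 0.159% lower with limma, so that a count of 0 among 37 is near the background. At an unadjusted p under 0.05, limma gave 3 of the 37 subunits (among them *Grin3b*, lower, and *Gabra5*, higher) and 10.4% of all genes. With edgeR 3 subunits passed and with DESeq2 4, and the shares over all genes were not counted for these methods. The CPM of the groups did not overlap in 5 subunits, all lower after DT (*Grik1*, *Grin3b*, *Grid1* and *Gabra4* among them), while 7.57% of all genes were apart and lower and 8.75% apart and higher. The fold changes lay above 0 for 18 subunits and below 0 for 19, from -0.63 to 0.55 on the log2 scale, with a median of -0.0065, against -0.0052 over all genes tested.

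Each 95% interval gives a range for the difference of its own subunit in the limma fit, without correction for the number of subunits. The 95% interval lay within a 1.5-fold change in either direction for 20 of the 37 subunits and within a 2-fold change for 32. Among the 5 subunits with wider intervals were *Grin3b*, *Grm4*, *Gabra5* and *Gabrd*.

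**Figure D3:**
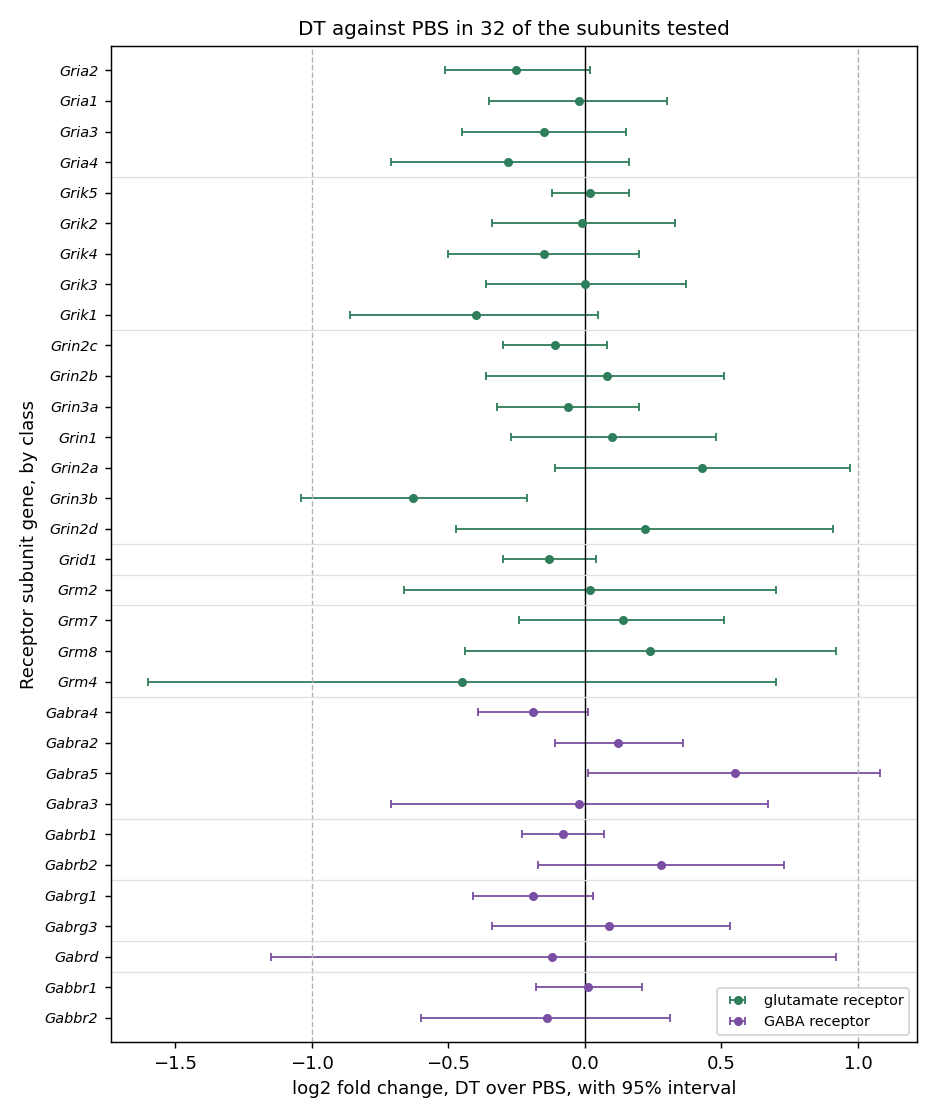
Log2 fold change of DT over PBS with its 95% interval (limma, 3 PBS and 3 DT libraries) for 32 of the subunits tested, by receptor class, with glutamate receptors in green and GABA receptors in purple. Dashed lines mark a 2-fold change, and all estimates lie between -0.63 and 0.55.

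Markers of cells other than astrocytes moved beside some of these values. The 5 subunits whose groups did not overlap were all lower after DT, and so was the sum of 10 markers of oligodendrocyte precursor cells, at 614, 494 and 561 CPM after PBS and at 412, 424 and 465 CPM after DT. Each of these 10 markers was read, none was called in either direction, and 7 of them had a log2 fold change below 0, with a median of -0.21. *Grik1*, at 2.73, 3.78 and 3.77 TPM after PBS and 2.70, 2.34 and 2.67 TPM after DT, had a log2 fold change of -0.40 (95% interval -0.86 to 0.05, adjusted p = 0.533, limma). The sum of 7 endothelial markers was 857 to 1213 CPM after PBS and 699 to 797 CPM after DT, and 1 of them, *Slco1c1*, was called lower. Ependymal markers, 6 in number, summed to 210 to 259 CPM after PBS and 276 to 463 CPM after DT, and none was called. The sum of 9 oligodendrocyte markers overlapped between the groups, at 400 to 514 CPM and 357 to 442 CPM. The part of these cells in the values of the receptor subunits was not tested, and in sorted bulk samples fewer cells of a type and less RNA per cell cannot be told apart.

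The spread between libraries of one group was not the same for all subunits. DT1 was the lowest of the 6 libraries for 12 of the 37 subunits (32.4%) and DT3 for 9 (24.3%), where over all genes tested the shares were 17.0% and 18.0%. The median deviation from the subunit means was -0.16 on the log2 scale in DT1 and 0.13 in DT3. DT1 also had the lowest and DT3 the highest sum of the 15 neuron markers. Across the 6 libraries, 12 subunits had a Pearson correlation of at least 0.7 with this sum on the log2 scale. *Grm2* followed it most closely (r = 0.99, exact permutation p = 0.00139, rho = 1.0, exact permutation p = 0.00278), from 1.79 CPM in DT1 to 3.79 CPM in DT3. *Grin2b* ran from 54.5 CPM in DT1 to 94.3 CPM in DT3 (r = 0.97, exact permutation p = 0.00278, rho = 0.94, exact permutation p = 0.0167). *Grin1*, *Gabrb2*, *Grin2a*, *Grik3*, *Gria3* and *Grm7* were among the rest, and the median level of the 12 was 9.11 TPM. The share of all genes with an r of at least 0.7 was not computed, so the count of 12 cannot be set against a background.

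In the other direction, 5 subunits had an r of at most -0.6 with the neuron markers, namely *Grik2* (-0.81), *Gabrb1* (-0.74), *Gabbr1* (-0.67), *Gabrg1* (-0.65) and *Grin2c* (-0.63). Their median level was 225 TPM. This limit is looser than the 0.7 used above. Only *Grik2* and *Gabrb1* would meet a limit as strict, so the median level depends on the limit chosen. *Grin2c* was lowest in DT3 at 497 CPM, where *Grin2b* was highest. With the sum of the astrocyte markers, these 5 subunits had an r of 0.57 (*Grik2*), 0.83 (*Gabrb1*), 0.38 (*Gabbr1*), 0.59 (*Gabrg1*) and 0.31 (*Grin2c*). Without DT1 and PBS1, the libraries farthest from the median of the astrocyte sum, *Gabrb1* came to 0.70. The others then ran from -0.31 (*Gabbr1*) to 0.10 (*Grin2c*). None of these relations passed correction over the 111 computed with neuron, astrocyte and oligodendrocyte precursor markers, the smallest Benjamini-Hochberg adjusted p being 0.154 for r and 0.308 for rho (exact permutation tests over the 720 orders, two-sided). With 720 orders an exact permutation p cannot be below 0.00139, so no relation alone could pass this correction, however close. Failing it therefore does not measure how strong a relation was. Of the 12 subunits, 8 kept an r of at least 0.7 without DT1 and DT3, the libraries farthest from the median of the neuron sum, and *Gria3* alone turned negative. Of the 5 with a negative r, *Gabrg1* (-0.96), *Gabrb1* (-0.72) and *Grik2* (-0.61) stayed at -0.6 or below without these libraries, whereas *Grin2c* came to -0.19 and *Gabbr1* turned positive (0.15). Without *Camk2a*, the largest of the neuron markers and left out after the data had been seen, 10 of the 12 stayed at 0.7 or above. Groups of 3 libraries are too few for a correlation within each group, and the points share their libraries, their depth and the scaling of CPM.

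**Figure D4:**
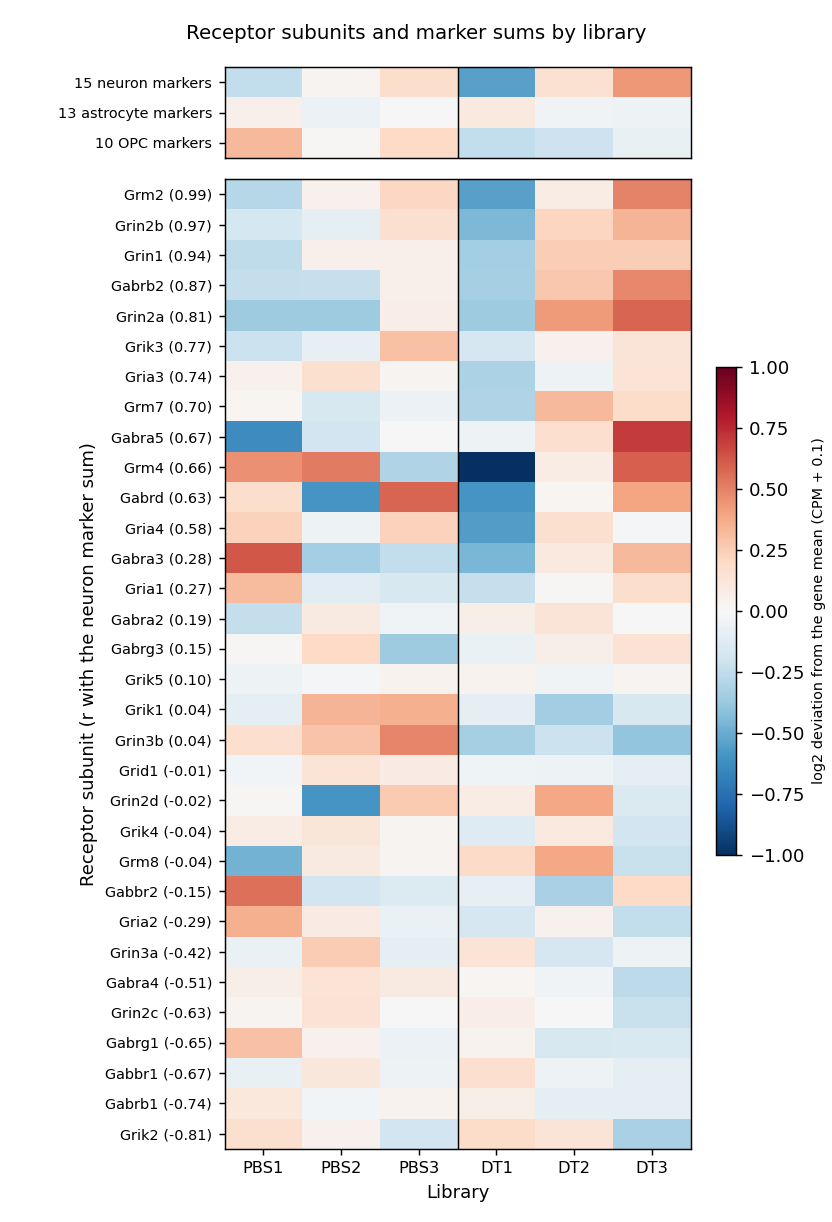
Deviation of 32 of the subunits tested from their means over the 6 libraries, in log2(CPM + 0.1), with the sums of the neuron, astrocyte and oligodendrocyte precursor (OPC) markers above (log2 CPM). Subunits are ordered by their Pearson correlation with the neuron sum, given in brackets, and the color scale ends at -1 and 1. Through this ordering by correlation, the upper rows are mostly blue in DT1 and red in DT3, and the lowest rows show the weaker opposite pattern.

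Genes that act with the receptors were counted in 7 lists, which hold 95 genes, 92 of them tested. *Neto2* and *Slc1a4* were called higher with limma, and none was called lower. Over all 15137 genes tested, 0.555% were called higher and 0.159% lower. *Neto2* encodes an auxiliary subunit of kainate receptors. Its level was 9.48, 9.59 and 10.1 CPM after PBS and 17.9, 17.7 and 18.0 CPM after DT, 0.87 higher on the log2 scale (SE 0.10, adjusted p = 0.00650, limma). The kainate subunits themselves had log2 fold changes from -0.40 to 0.02. Of the 18 auxiliary subunits of AMPA and kainate receptors, 13 lay above 0 and 5 below, with a median log2 fold change of 0.15. Only *Neto2* among them was called with limma. Over all genes tested, 48.7% lay above 0, with a median of -0.0052.

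*Slc1a4* encodes an exchanger of serine and other neutral amino acids, and serine in its D form is a co-agonist of NMDA receptors. It was at 351, 306 and 325 CPM after PBS and at 474, 432 and 421 CPM after DT, 0.43 higher on the log2 scale (SE 0.07, adjusted p = 0.0387, limma). The groups of *Slc1a4* did not overlap, but its call was lost in 5 of the 6 fits that left out a library, all but that without PBS1, with adjusted p-values from 0.0747 to 0.16 in those fits. Among the 8 genes of co-agonist supply, 2 lay above 0 and 6 below, with a median log2 fold change of -0.12.

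The remaining lists held no gene called with limma. Of 20 scaffolds of the postsynaptic density, 9 lay above 0 and 11 below. For the partners and scaffolds of GABA-A receptors these counts were 7 and 9 of 16, and for the partners of the GABA-B receptor 4 and 5 of 9. The 6 genes of glutamate and GABA release, 5 of which are also among the neuron markers, had 5 genes tested, 4 above 0 and 1 below. Of 18 genes of the calcium and cAMP steps below metabotropic glutamate receptors, 16 were found under their symbols, 8 above 0 and 8 below.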

How the data were processed

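RNA of 3 PBS and 3 DT libraries of MACS-sorted hippocampal astrocytes was analysed from the deposited gene tables. Per the labels, the authors used Trim Galore 0.5.0, FastQC 0.11.8, HISAT2 2.1.0 on mm10, BEDTools 2.25.0 to remove ribosomal reads, StringTie 1.3.5 and edgeR 3.24.3 in R 3.5.1. The deposited TPM were used for levels between genes. The deposited CPM signal was relative to library sizes the authors had scaled, where plain CPM had been assumed. Its steps gave whole reads (within 0.05) for 100% of values under 1000 CPM, so reads per library were recovered. The deposited columns of the authors' own comparison, a p-value, a q-value and a log2 ratio per gene, were not used, and 27 gene names had been turned into dates.

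Genes with a mean of at least 0.5 CPM were compared on log2(CPM + 0.1), a scale that understates changes of low genes, with limma 3.58.1 in R 4.3.3 (variance trend, two-sided, Benjamini-Hochberg over all genes tested, threshold 0.05). edgeR 4.0.16 and DESeq2 1.42.0 on the recovered reads were alternatives. A level of 3 reads was the floor, 0.0904 to 0.138 CPM. Counting limits cover counting error only. Coordinates are from GENCODE M21. The members and lists were chosen with earlier results of these data known. Full values were given for members past the threshold, those with groups apart and an unadjusted p under 0.05, and the 2 highest of each class at 1 TPM or more, and for listed genes past the threshold. Some members are not reported here by name but stand in the counts and sums. The tests were also run on simulated reads with planted changes of 2-fold or more. That run does not show how often smaller changes, such as those estimated for the subunits, would be called. The limits for r were chosen after seeing the data.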

Additional observations from a re-analysis of the deposited data

How the results depend on the processing

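In all 16 alternatives 0 of the receptor subunits were called in either direction. The smallest adjusted p of any subunit was 0.277 (*Grin3b*) and ran from 0.139 (*Grin3b*, no variance trend) to 0.545 (*Grin3b*, without DT3). The median log2 fold change of the subunits lay between -0.0637 and 0.0875 when each library was left out in turn. With all 6 libraries in the limma fit, the 95% interval lay within 1.5-fold for 20 of 37 subunits; this was not counted under the alternatives. *Gabrd* (9 to 22 reads) and *Grm8* (22 to 59 reads) had no value at a mean of at least 2 CPM.

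Counts over all genes moved more: 84 higher and 24 lower became 5 and 1 with no filter, 35 and 11 with no variance trend and 227 and 98 with DESeq2, and 39 to 72 and 9 to 20 when 1 library was left out. Higher calls among the listed pathway genes fell from 2 to 1 with no filter and with no variance trend, and were 1 to 2 when 1 library was left out, while with DESeq2 higher calls rose to 3 (*Cacng5* added) and lower calls from 0 to 2 (*Kctd12* and *Gldc*). The cause was not tested.

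Of 398 values of named genes under the alternatives, 368 kept direction and call, 7 of *Slc1a4* lost the call, and 23 turned direction, all within 0.23 of 0 and not called. With all libraries these were *Gria1* at 0.00366 and *Grik2* at 0.01 in TPM, *Grik2* at 0.01 with edgeR and with DESeq2, and *Grm2* at -0.04 with quantile normalization. With 1 library left out, *Gria1* ran from -0.12 to 0.13 (0.13 without PBS1, 0.09 without DT1), *Grik5* from -0.00279 (without PBS1) to 0.04, *Grik2* from -0.10 to 0.15 (0.07 without PBS1, 0.01 without PBS2, 0.15 without DT3), *Grin2b* from -0.08 to 0.32 (-0.01 without DT2, -0.08 without DT3), *Grm2* from -0.23 to 0.30 (-0.12 without PBS1, -0.01 without DT2), *Gabrg3* from -0.06 (without PBS3) to 0.22, *Gabrd* from -0.44 to 0.15 (without PBS3 and without DT1), *Gabbr1* from -0.07 to 0.07 (-0.02 without PBS1, -0.01 without PBS3, -0.07 without DT1) and *Gabbr2* from -0.28 to 0.09 (without PBS1).

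The replicate numbers were not taken to pair the libraries: the deviations of same-numbered libraries correlated at 0.115, 0.0105 and 0.118, where each would have to be over 0.1. Differently numbered libraries correlated at -0.124 to 0.0115. The values of 0.115 and 0.118 lay above all of these and 0.0105 did not, so whether the numbers pair the libraries stayed undecided. With the replicate block 79 genes were called higher and 30 lower, 0 of them receptor subunits.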
